A study of Mus musculus with 8 samples.

Results

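Complex I (NADH:ubiquinone oxidoreductase) is the entry point of electrons into the mitochondrial respiratory chain. It is built from subunits encoded in the nucleus, whose gene symbols begin with Nduf, and from subunits encoded by the mitochondrial genome, and a set of assembly factors, several of them named Ndufaf, puts it together and leaves before the enzyme is finished. Its peripheral arm holds the N module, which oxidises NADH, and the Q module, which passes electrons to ubiquinone, while the membrane arm is built from the ND1, ND2, ND4 and ND5 modules, each named after a mitochondrially encoded subunit. Neurons depend heavily on this pathway for ATP, and inherited complex I defects are a known cause of encephalopathies of childhood.

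The Nduf mRNAs were taken as all genes of the long-read count table whose Ensembl identifier belongs to a symbol beginning with Nduf, and compared between aged (24m) and young adult (6m) brain. Of 22430 genes in the table, 48 met this rule, and 46 of these had a mean count over 5 across the 8 libraries and were tested together with 9375 genes in all. The tested members were 37 subunits of complex I, among them the 7 nuclear subunits of the catalytic core, 8 Ndufaf assembly factors and Ndufa4, which is now counted as a subunit of complex IV. The tested member with the fewest reads was Ndufaf6, with a mean of 13.1 per library. Below the count minimum were Ndufa4l2, a hypoxia-induced relative of Ndufa4, with a mean of 3 reads, and Ndufb11b, with 0 reads in every library.

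The libraries came from 8 male mice of the inbred strain C57Bl/6JRj without any treatment, 4 of them aged 6 months and 4 aged 24 months, with 1 library per mouse. Whole brain hemispheres were homogenised, and their RNA was read on a MinION by Oxford Nanopore (ONT) direct RNA sequencing, in which each read is 1 RNA molecule entering the pore from its poly(A) tail. The sample labels name a directional poly(A) kit for short-read libraries instead, and the methods of the study were followed here. A hemisphere is a mixture of cell types, so that fewer cells of a type and less RNA per cell cannot be told apart in these data.

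Libraries held between 573152 counts (6m replicate 2) and 1255424 counts (24m replicate 4). Levels are given as CPM, the counts scaled to the TMM-adjusted library size, with TMM factors of 0.958 to 0.972 at 6m and 0.993 to 1.06 at 24m. Replicate 1 stood apart among the aged libraries: its chi-square per degree of freedom against the other 24m libraries was 2.73 to 4.07, while pairs of the other 24m libraries gave 1.30 to 1.97 and pairs of 6m libraries 1.18 to 1.84. It also had the highest summed Nduf level of the aged group. Counts of members that fell are therefore given with all libraries and, in the paragraph on each group, without this library.

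The Nduf family as a whole was lower in the aged brain. Of the 46 tested members, 44 had a negative log2FC (24m minus 6m), which is 95.7% of the family beside 50.3% of all tested genes. Among abundant genes outside the family this share was higher, 63.5% at a mean count of 200 to 400 and 78.8% at 400 to 1000. The median log2FC of the family was -0.29, equal to a difference of -18.4% in level, while the median of all 9375 tested genes was -0.003. The largest decrease was -0.74 (Ndufaf1) and the highest value 0.09 (Ndufc2), so the family moved within a narrow band.

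Summed over the 46 members, the level was 19887, 19977, 19674 and 20638 CPM in the 4 young libraries. In the 4 aged libraries it was 18446, 15516, 15754 and 16898 CPM. Every aged library lay below every young one, and 24m replicate 1 lay closest to the young group. The mean went from 20044 ± 416 CPM to 16654 ± 1339 CPM (SD, n = 4 each), a difference of -16.9% or -0.27 on the log2 scale. Without TMM scaling, the family took 1.89% to 2.01% of all counts at 6m and 1.65% to 1.83% at 24m, again without overlap, and the difference was then -0.17 on the log2 scale.

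**Figure D1:**
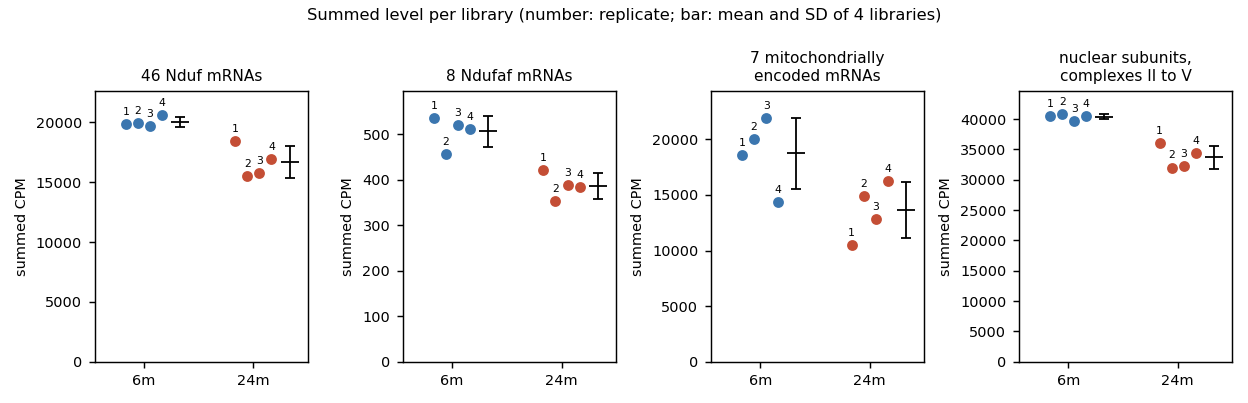
Summed level in CPM (vertical axes, from 0) of 4 groups of mRNAs in each 6m (blue) and 24m (red) library, with the replicate number above each point and bars for the mean and SD of 4 libraries. The 46 Nduf mRNAs, the 8 Ndufaf mRNAs and the nuclear subunits of complexes II to V did not overlap between the ages, whereas the 7 mitochondrially encoded complex I mRNAs did.

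At an adjusted p of at most 0.05 (edgeR's quasi-likelihood test, Benjamini-Hochberg over all tested genes), 21 of 46 members (45.7%) fell with age and 0 rose. Over all tested genes the same criterion was met by 9.42% downwards and by 12.3% upwards. Members had a median count of 329.5 per library and all tested genes 23.5, and shares at matched counts are given below. Adding the fold criterion of the study (absolute log2FC of at least 0.58), only 2 members (4.35%) changed, both of them assembly factors that fell, beside 4.17% of all genes changed downwards and 10.3% changed upwards. The family's decreases were thus mostly smaller than the fold criterion, with a median standard error of 0.0988 log2 units for members and of 0.238 for all tested genes. The CPM of the 2 ages did not overlap, with the aged libraries lower, for 17 members (37%), beside 9.96% of all tested genes. Without 24m replicate 1 this held for 30 members, beside 16.1% of all tested genes.

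These counts depended on single libraries. Without 24m replicate 1, 30 members fell (12.2% of all genes then tested), and without 6m replicate 1, 24m replicate 2 or 24m replicate 3, 12 members fell (5.61%, 5.61% and 5.79% of all genes). In each of the 8 fits that left out a library, 0 members rose. A negative log2FC in all 20 alternative fits was found for 41 members. Of the 21 members that fell, 9 kept an adjusted p of at most 0.05 whichever library was left out, among them Ndufa2, Ndufa5, Ndufa6, Ndufa11, Ndufa13, Ndufb2, Ndufc1 and Ndufaf1. The counts of 41 and 9 were not taken over all tested genes, and the alternative fits reuse the same libraries.

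**Figure D2:**
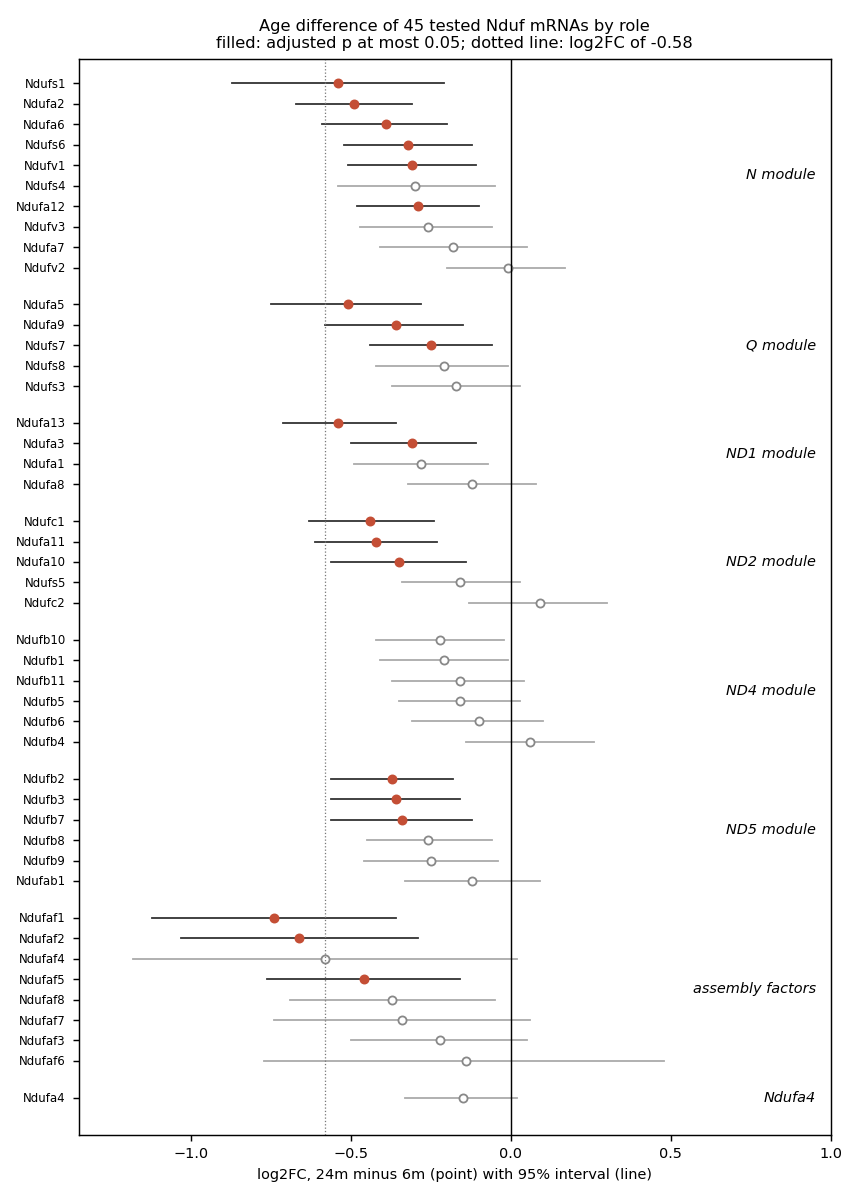
Log2FC (24m minus 6m, horizontal axis) of 45 tested Nduf mRNAs, grouped by module or role, with 95% intervals as lines. Filled points passed an adjusted p of at most 0.05, and the dotted line marks a log2FC of -0.58, beyond which only Ndufaf1 and Ndufaf2 passed. No ND4 module member is filled.

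The catalytic core consists of the subunits that carry the redox centres and the ubiquinone site and that bacterial complex I shares. All 7 nuclear core members had a negative log2FC, with a median of -0.25. Of them 4 fell, or 6 without 24m replicate 1, beside 9.42% and 12.2% of all tested genes. Summed, the core members reached 3011 ± 64.9 CPM in young adult and 2553 ± 204 CPM in aged brain (SD, n = 4 each), without overlap.

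Ndufs1, the large iron-sulfur subunit of the N module (ENSMUSG00000025968, GRCm39 chr1:63182058-63216236, minus strand), had 178, 175, 159 and 103 CPM in the young libraries. In the aged libraries it had 77.7, 105, 104 and 127 CPM. The ages overlapped because 6m replicate 4 lay at the level of the aged group. The log2FC of -0.54 (SE 0.161, adjusted p = 0.0175) was the largest decrease in the core, and it was -0.69 (adjusted p = 0.00307) without 6m replicate 4. Without 6m replicate 1, 2 or 3 or 24m replicate 2 its adjusted p was 0.0882, 0.0631, 0.0539 and 0.0529, so that leaving out any of these 4 ended the call.

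Ndufv1, which binds NADH and FMN, fell from 496 ± 47.5 to 401 ± 40 CPM, with a log2FC of -0.31 (adjusted p = 0.0219). Ndufs7, which carries the last iron-sulfur cluster before ubiquinone, fell from 509 ± 27.1 to 428 ± 38.1 CPM, with a log2FC of -0.25 and an adjusted p of 0.05, at the threshold. Without 24m replicate 1 both passed more clearly (adjusted p = 0.00137 and 0.00524). Ndufs7 lost its call without any other library (adjusted p up to 0.161), and Ndufv1 without 6m replicate 1 or 4 or 24m replicate 2, 3 or 4 (adjusted p up to 0.116). Ndufs8, a Q module iron-sulfur subunit, had a log2FC of -0.21 (adjusted p = 0.135) and Ndufs3, which sits beside it, -0.17 (adjusted p = 0.219). Neither passed with all libraries, and both did without 24m replicate 1 (Ndufs8 -0.28, adjusted p = 0.0167, and Ndufs3 -0.24, adjusted p = 0.0292).

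Ndufv2, the iron-sulfur partner of Ndufv1 in the N module, was the exception in the core. It had 405, 396, 443 and 423 CPM at 6m and 413, 400.3, 378 and 457 CPM at 24m, which overlap fully. Its log2FC was -0.01, with a 95% interval of -0.2 to 0.17 (adjusted p = 0.932), and its sign depended on the scaling and on the libraries kept.

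Accessory subunits surround the core and are needed for its assembly and stability. Of the 30 measured, 28 had a negative log2FC, with a median of -0.28. Of these 30, 14 fell, or 20 without 24m replicate 1, beside 9.42% and 12.2% of all tested genes. The members with the smallest p-values of the family were all accessory subunits and were chosen for description after their values had been seen.

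Ndufa13 (ENSMUSG00000036199, chr8:70346808-70355872, minus strand) is a membrane-anchored subunit of the ND1 module that is also known as a cell death regulator. It had 1065, 1204, 1141 and 1159 CPM at 6m and 828, 728, 772 and 819 CPM at 24m. The gap between the lowest young and the highest aged library was wider than the spread within either age, and the log2FC was -0.54 (SE 0.0849, adjusted p = 7.06e-05), the smallest p of the family. Exons of Ndufa13 overlap another gene on the same strand and one on the opposite strand, so reads could have been split between them by the authors' counting.

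Ndufa2, an N module subunit with a thioredoxin-like fold, had 649, 685, 619.8 and 699 CPM at 6m and 497, 445, 475 and 472 CPM at 24m. Again no aged library reached a young one, with a log2FC of -0.49 (SE 0.0866, adjusted p = 0.00027). Ndufa5, a Q module subunit on the outside of the peripheral arm, had 364, 313, 337 and 362 CPM at 6m and 221, 190.3, 274 and 279 CPM at 24m. Its log2FC was -0.51 (SE 0.114, adjusted p = 0.00238), and its aged libraries varied more among themselves than those of Ndufa2.

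Ndufc1 and Ndufa11, both of the ND2 module, had smaller p-values than Ndufa5. Ndufc1 went from 479 ± 36.7 to 354 ± 26.3 CPM (log2FC -0.44, adjusted p = 0.00177), and Ndufa11, a membrane subunit close to the supercomplex contacts, from 712 ± 16.3 to 532 ± 66.2 CPM (log2FC -0.42, adjusted p = 0.00195). Ndufa6, an LYR-motif protein between the N and Q modules that binds the acyl carrier Ndufab1, fell with a log2FC of -0.39 (adjusted p = 0.00455). Ndufb2, of the ND5 module, fell with a log2FC of -0.37 (adjusted p = 0.00581). None of these 4 overlapped between the ages.

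**Figure D3:**
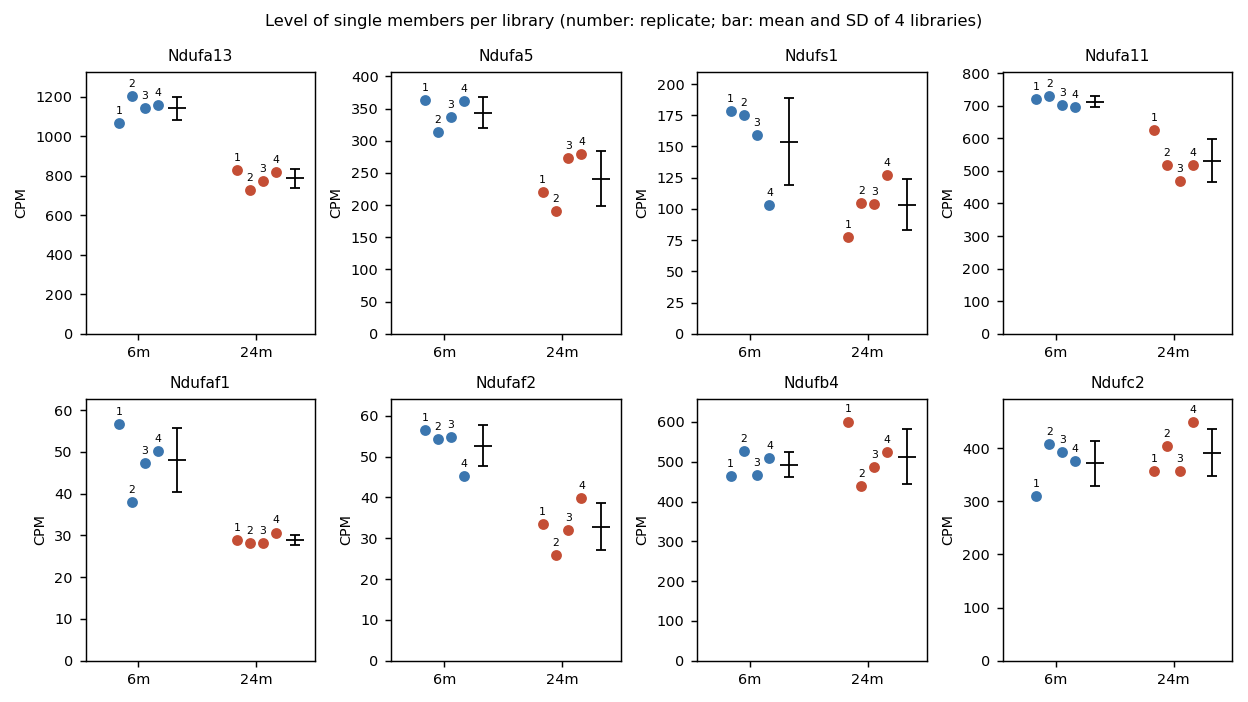
CPM per library (vertical axes, from 0) of 8 Nduf mRNAs at 6m (blue) and 24m (red), with the replicate number above each point and bars for the mean and SD of 4 libraries. Ndufa13, Ndufa5, Ndufa11, Ndufaf1 and Ndufaf2 did not overlap between the ages, Ndufs1 overlapped through 6m replicate 4, and Ndufb4 and Ndufc2 overlapped as well.

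The N module had 6 of 10 members that fell and a median log2FC of -0.31, and its summed level differed by -18.6%. The Q module had 4 of 6 and a median of -0.30. In the membrane arm, 2 of 4 ND1 module members, 3 of 5 ND2 module members and 3 of 6 ND5 module members fell, with medians of -0.29, -0.35 and -0.30. The ND4 module had 0 of 6 members that passed, a median of -0.16, and a difference of -8.42% in its summed level, with 2707 to 2837 CPM at 6m and 2326 to 2859 CPM at 24m. Its highest aged value came from 24m replicate 1. Without that library, Ndufb10 (-0.27, adjusted p = 0.0181) and Ndufb11 (-0.26, adjusted p = 0.00974) fell, so that the ND4 module had 2 of 6, and its summed level differed by -12.3%. The counts of the other modules were then 8 of 10 for N, 6 of 6 for Q, 2 of 4 for ND1, 3 of 5 for ND2 and 5 of 6 for ND5. Over all tested genes 9.42% fell with all libraries and 12.2% without 24m replicate 1. Whether the modules differ from each other was not tested.

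Ndufs4, Ndufs5 and Ndufs6 are the complex I subunits that the study text names. Ndufs6, a zinc-binding N module subunit, had 393, 416, 345 and 442 CPM at 6m and 341, 293, 322 and 322 CPM at 24m and fell with a log2FC of -0.32 (SE 0.0982, adjusted p = 0.0212). The ages were separated by only a few CPM, and 5 of the 8 fits without a library lost the call (6m replicates 1, 2 and 4, 24m replicates 2 and 3), with adjusted p up to 0.111. Ndufs4, an N module subunit whose loss in mice gives a Leigh-like encephalopathy, had 148, 183, 174 and 175 CPM at 6m and 127, 149.7, 131 and 141 CPM at 24m, with a log2FC of -0.30 that did not pass (adjusted p = 0.0743). Ndufs5, an intermembrane-space subunit of the ND2 module, averaged 497 ± 28.1 CPM in young adult and 447 ± 32.5 CPM in aged brain, with a log2FC of -0.16 (adjusted p = 0.218). A processed pseudogene, Ndufs5-ps, is nearly identical to Ndufs5 and could have taken part of its reads.

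Assembly factors had the lowest median of the family, -0.42, a difference of -25.1% in level, and all 8 had a negative log2FC. Summed over the 8, the level was 535, 456, 520.2 and 512 CPM at 6m and 421, 353, 388 and 383 CPM at 24m, with no overlap and a difference of -23.6%. With all libraries 3 of the 8 fell, and without 24m replicate 1 there were 4, beside 9.42% and 12.2% of all tested genes. The median standard error of the assembly factors was 0.183 against 0.0981 for the subunits, so that smaller decreases were less detectable in the assembly factors. Per 100 reads of subunit mRNAs there were 2.75 ± 0.207 reads of assembly factors at 6m and 2.54 ± 0.102 at 24m (SD, n = 4 each), with overlap.

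Ndufaf1, which works with Acad9 and Ecsit in building the membrane arm (ENSMUSG00000027305, chr2:119482683-119493359, minus strand), had 56.6, 38, 47.3 and 50.2 CPM at 6m. At 24m it had 29, 28.1, 28.2 and 30.7 CPM. The aged libraries were close together and all below the young ones, and the log2FC of -0.74 (SE 0.186, adjusted p = 0.00582) was the largest decrease of the family. It held in all 20 alternative fits, between -0.81 and -0.63, and no annotated exon of another gene overlaps it.

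Ndufaf2, a paralogue of the subunit Ndufa12 that acts before the N module docks (ENSMUSG00000068184, chr13:108139249-108295189, minus strand), had 56.6, 54.2, 54.8 and 45.2 CPM at 6m. At 24m it had 33.5, 26, 32 and 39.9 CPM. No aged library reached the young group, and the log2FC was -0.66 (SE 0.181, adjusted p = 0.0111). Without 24m replicate 2 it was -0.55 with an adjusted p of 0.053, which ends the call. DESeq2 on the same counts gave an adjusted p of 0.052, and with library sizes alone the log2FC was -0.55, inside the fold criterion.

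Ndufaf5, which hydroxylates an arginine of Ndufs7, had 87.4, 83.2, 82.1 and 76.6 CPM at 6m and 62.5, 63.4, 52.5 and 59.8 CPM at 24m. It fell without overlap (log2FC -0.46, SE 0.146, adjusted p = 0.0243), and the call was lost without 6m replicate 1 or 3 or 24m replicate 3, with adjusted p of 0.0746, 0.0509 and 0.0777. It was also lost in DESeq2 (0.0924), in DESeq2 on quantile-normalized counts (0.0853), with library sizes alone (0.0793) and without a count filter (0.0596). Ndufaf8, its binding partner, had a log2FC of -0.37 that did not pass (adjusted p = 0.0905), except without 24m replicate 1 (-0.45, adjusted p = 0.0253). The remaining assembly factors did not pass either: Ndufaf3 and Ndufaf4, which act together on the early Q module, had log2FC of -0.22 and -0.58 (adjusted p = 0.254 and 0.162), and Ndufaf7, a methyltransferase, had -0.34 (adjusted p = 0.228). Ndufaf6, with 17.2 ± 5.44 CPM in young adult and 14.9 ± 3.15 CPM in aged brain, had -0.14 (adjusted p = 0.78) with an interval of -0.77 to 0.48, too wide to tell a decrease of the family's size from none.

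Of 11 tested assembly factors outside the Nduf symbols, such as Acad9 and Ecsit, 0 passed in edgeR in either direction, with a median log2FC of -0.08 and values from -0.43 to 0.44. Their summed level was 407 to 445 CPM at 6m and 367 to 430.3 CPM at 24m. A difference between the Ndufaf and the other assembly factors was not tested.

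Ndufb4 and Ndufc2 were the members with a positive log2FC. Ndufb4, of the ND4 module, had 464, 528, 467 and 509.8 CPM at 6m and 601, 438, 486 and 525 CPM at 24m, with a log2FC of 0.06 and an interval of -0.14 to 0.26. Ndufc2, of the ND2 module, had 310.2, 407, 393 and 375 CPM at 6m and 357, 403, 357 and 449 CPM at 24m, with a log2FC of 0.09 and an interval of -0.13 to 0.3. Neither passed the test (adjusted p = 0.722 and 0.593), and the ages overlapped in both. Without 24m replicate 1, its highest library, Ndufb4 turned to -0.01, whereas Ndufc2 was at 0.14.

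To see which members departed from the family, the counts were fitted again with the summed Nduf counts as the library size, so that a log2FC is then a change of a member's share of the family. This fit was added after the first results had been seen. Relative to the family, 2 members (4.35%) had a lower and 3 (6.52%) a higher share at 24m, while 1.58% of all tested genes were lower and 23.1% higher on this scale. The other 41 members did not pass on this scale.

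The share of Ndufa13 was 5.35%, 6.03%, 5.80% and 5.62% of the Nduf counts at 6m and 4.49%, 4.69%, 4.90% and 4.85% at 24m, a further decrease of -0.27 (SE 0.0711, adjusted p = 0.00858). The share of Ndufa2 went from 3.31% ± 0.127 to 2.84% ± 0.135, a log2 difference of -0.22 (adjusted p = 0.0393). Both subunits thus fell by more than the family did.

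The share of Ndufb4 was 2.33%, 2.64%, 2.37% and 2.47% at 6m and 3.26%, 2.82%, 3.09% and 3.11% at 24m, a log2 difference of 0.32 (SE 0.0801, adjusted p = 0.00528). Ndufc2 went from 1.85% ± 0.218 to 2.36% ± 0.336 of the family (log2 difference 0.36, adjusted p = 0.017) and Ndufv2 from 2.08% ± 0.118 to 2.48% ± 0.205 (log2 difference 0.26, adjusted p = 0.0334). These 3 had the highest log2FC on the ordinary scale too. That follows from the scaling, since the fits use the same counts and differ in the library size. The calls for Ndufa13 and Ndufb4 held in all 10 alternatives run on this fit. Ndufc2 lost its call without 6m replicate 1, 24m replicate 2 or 24m replicate 4 (adjusted p = 0.0852, 0.0723 and 0.0602). Ndufv2 lost it without 6m replicate 1, 2 or 4 or 24m replicate 2, 3 or 4 (adjusted p up to 0.0976), and Ndufa2 without any young library or without 24m replicate 2 or 4 (adjusted p up to 0.107).

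**Figure D4:**
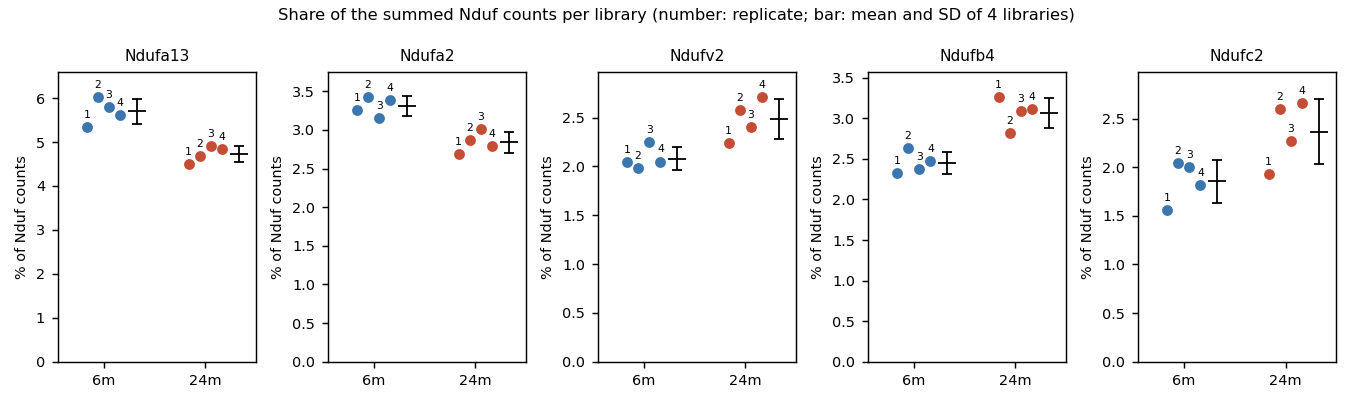
Share of the summed Nduf counts in percent (vertical axes, from 0) of the 5 members whose share differed between 6m (blue) and 24m (red), with the replicate number above each point and bars for the mean and SD of 4 libraries. The shares of Ndufa13 and Ndufa2 were lower in every aged library and that of Ndufb4 higher in every aged library.

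Promoter sequence is shown for Ndufa13 and Ndufb4, whose shares of the family moved apart, for both assembly factors that changed, and for 1 member with each of the remaining motifs, because transcription factors NRF1, GABP (an ETS factor), YY1 and the oestrogen-related receptors (ERR) are known regulators of respiratory chain genes. Windows of 250 bases before to 50 bases after the start of the canonical GENCODE transcript (GRCm39) were searched on both strands, and sequences are printed on the gene's strand with the match in capitals. The NRF1 core (GCGCA, any base, GCGC), which can match at the same place on both strands, was found in 7 of 46 members (15.2%) and in 9.63% of 9349 tested genes with such a window. Ndufa13 and Ndufb4 both held it more than once.
Ndufa13, match from base -118, chr8:70355971-70356000: aatcgaggatGCGCATGCGCtctccagcaa
Ndufa13, match from base -188, chr8:70356041-70356070: agctcattctGCGCAGGCGCaatgcttctc
Ndufb4, match from base -106, chr16:37474902-37474931: gagaagcagtGCGCACGCGCagaatacgcg
Ndufb4, match from base 6, chr16:37474790-37474819: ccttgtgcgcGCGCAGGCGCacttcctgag
The median log2FC was -0.16 for the 7 members with this match and -0.30 for the others. A match is a description of the letters and not a binding site.

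The ETS core CCGGAAG was found in 7 members (15.2%, beside 16% of all windows), among them both assembly factors that changed.
Ndufaf1, match from base 26, chr2:119493315-119493344: cgggaccacaaCCGGAAGcgtggcgaaccg
Ndufaf2, match from base -247, chr13:108295410-108295439: gcaCCGGAAGaggaaaagacacgcgcgtga
The ERR core AAGGTCA occurred in 4 members (8.7%, beside 3.68% of all windows), including Ndufs1, the core member with the largest decrease. The YY1 core AAGATGGC occurred in 5 members (10.9%, beside 3.67%), including Ndufa9, a Q module subunit that fell (log2FC -0.36, adjusted p = 0.0152, up to 0.0766 without 6m replicate 1 or 3 or 24m replicate 2 or 3).
Ndufs1, ERR match from base 20, chr1:63216198-63216227: gctagaggttaAAGGTCAaggtccgttcct
Ndufa9, YY1 match from base 10, chr6:126826060-126826089: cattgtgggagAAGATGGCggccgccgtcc
Median log2FC with and without a match were -0.28 and -0.30 for ETS, -0.27 and -0.29 for ERR and -0.36 and -0.28 for YY1. The median GC content of the members' windows was 57.3% and that of all windows 58%. Of 6 tested regulators of mitochondrial genes, among them Nrf1, Esrra, Tfam and Yy1, 0 passed in edgeR in either direction, and without 24m replicate 1 Yy1 rose. The log2FC of the 6 ran from -0.2 to 0.72, with a median of 0.28. All 9 listed regulators summed to only 99.7 to 123 CPM at 6m and 119.6 to 129.6 CPM at 24m, so changes were hard to detect.

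The mRNAs of the other respiratory complexes were compared through lists of their subunits. The 7 complex I mRNAs encoded by the mitochondrial genome all had a negative log2FC, with a median of -0.46. Of them 4 fell, beside 9.42% of all tested genes and 52.6% of genes outside the Nduf family with a mean count over 1000. These were mt-Nd1 (-0.56, adjusted p = 0.00207), mt-Nd2 (-0.50, adjusted p = 0.00403), mt-Nd3 (-0.46, adjusted p = 0.00531) and mt-Nd4 (-0.55, adjusted p = 0.00471). The summed level of all 7 overlapped between the ages, with 14401 to 21924 CPM at 6m and 10533 to 16212 CPM at 24m. Here 24m replicate 1 was the lowest of all libraries, whereas for the nuclear Nduf mRNAs it was the highest of the aged group.

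Nuclear subunits of complexes II to V had 40 of 42 with a negative log2FC and a median of -0.28. Of them 23 fell, or 25 without 24m replicate 1, beside 9.42% and 12.2% of all tested genes. These shares are not matched for count. With all libraries, 34.5% of genes outside the Nduf family fell at a mean count of 400 to 1000 and 52.6% above 1000. The sum of these subunits was 40365 ± 433 CPM in young adult and 33686 ± 1927 CPM in aged brain, without overlap. This is a difference of -16.5%, beside -16.9% for the Nduf family. By complex, 6 of 9 members of complex III, 7 of 10 of complex IV and 10 of 19 of complex V fell, and 0 of 4 of complex II (median 0.05). Decreases were thus present in the nuclear mRNAs of complexes III, IV and V as well. Ndufa4, which belongs with complex IV, had 1166, 1177, 1113 and 1157 CPM at 6m and 1085, 970, 965 and 1125 CPM at 24m and did not pass (log2FC -0.15, interval -0.33 to 0.02, adjusted p = 0.208). Ndufa4l2 had 4.92, 3.62, 3.73 and 6.28 CPM at 6m and 3.05, 2.08, 2.56 and 3.07 CPM at 24m and was too rare to be tested.

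Of 10 other mitochondrial proteins, the chaperone Hspd1 changed downwards (log2FC -0.63, adjusted p = 0.00528), while citrate synthase Cs (0.52, adjusted p = 0.0045) and the outer membrane channel Vdac1 (0.26, adjusted p = 0.037) rose. Their median was -0.10 and their summed level was 2635 to 2853 CPM at 6m and 2649 to 3179 CPM at 24m. Members of this list thus moved in both directions, and without 24m replicate 1 the carrier Slc25a4 rose too.

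Nduf mRNAs are short and abundant, and in these libraries the age difference varied with both properties. The median canonical transcript of a member has 1203 bases and that of a tested gene 3120 bases. Among genes of up to 1000 bases, the median log2FC was -0.25 for 21 members and -0.20 for the other genes, and 38.1% of these members and 21.2% of the other genes fell. Among genes of 1000 to 2000 bases it was -0.22 for 13 members and -0.09 for the others, of which 38.5% and 11.1% fell. Among genes of 2000 to 4000 bases it was -0.36 for 7 members and 0.06 for the others, and among longer genes -0.35 for 5 members and 0.07 for the others. Members with a canonical transcript over 2000 bases, Ndufaf1 and Ndufs1 among them, thus lay below the median of other genes of that length. The medians were closest among genes of up to 1000 bases. These are annotated lengths, and the lengths of the reads were not examined. At a coding length of up to 500 bases, the median was -0.31 for 22 members and -0.07 for other genes. At a mean count of 5 to 100, 42.9% of 7 members and 6.52% of other genes fell. At 100 to 200 it was 33.3% of 3 members and 15.9% of others, and at 200 to 400, 44% of 25 and 26.6%. At 400 to 1000 it was 54.5% of 11 members and 34.5% of others. Above 1000 there were 0 members, and 52.6% of the other genes fell.

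Among genes of up to 1500 bases with a mean count of 200 to 1000, a window chosen after seeing the data, 41.7% of 24 members and 37% of 192 other genes fell, with medians of -0.24 and -0.22. Of these other genes 83.3% had a negative log2FC. They held 16 subunits of complexes II to V and 36 cytosolic ribosomal proteins. Short and abundant mRNAs outside the family thus had a median close to that of the members, and the part of length and abundance in the Nduf decrease was not tested.

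**Figure D5:**
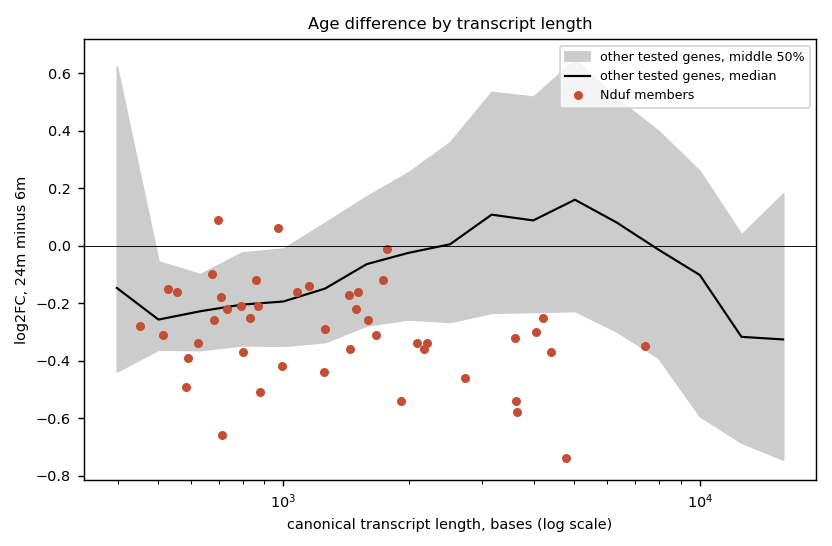
Log2FC (24m minus 6m, vertical axis) against canonical transcript length in bases (horizontal axis, log scale) for 46 Nduf mRNAs (red points), with the median (line) and middle 50% (band) of the other tested genes in bins of length. Members under 1000 bases lie mostly around the line, whereas those over 2000 bases all lie below it.

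Many Nduf genes share their locus with other genes. Exons of 28 members overlap a gene on the opposite strand, exons of 5 overlap a gene on the same strand, and 6 have a near-identical stretch in another annotated transcript. Of the 15 members with none of these, 13 had a negative log2FC, 6 fell (Ndufa10, Ndufa12, Ndufaf1, Ndufaf5, Ndufb7 and Ndufv1), and the median was -0.29, the value of the whole family. Without 24m replicate 1, 8 of the 15 fell. Over all tested genes 9.42% fell with all libraries and 12.2% without this library.

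Cell type markers moved between the ages as well. Over all tested genes 12.3% rose and 9.42% fell, and these shares stand beside the count of each marker list. Of 10 neuronal markers 7 rose and 1 fell, with Snap25 (0.77), Gad1 (0.75) and Slc17a7 (0.58) changed. The summed level of the 10 was 3031 to 3243 CPM at 6m and 3723 to 3996 CPM at 24m. Of 6 oligodendrocyte markers 4 rose (1869.7 to 2437 CPM at 6m, 2556 to 3448 CPM at 24m), including Mbp (0.72). Of 6 tested astrocyte markers Gfap (1.94) and Slc1a3 (1.65) rose and Slc1a2 (-0.59) fell, with summed levels that overlapped (2542 to 3016 CPM and 2520.5 to 3280.2 CPM). Microglial markers had 2 of 4 that rose (248 to 265 CPM and 311 to 434 CPM).

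All 5 red blood cell genes changed downwards, beside 4.17% of all tested genes. They had a median of -0.87 and summed levels of 6090.3 to 10032 CPM at 6m and 3350.4 to 6283 CPM at 24m. Of 4 tested choroid plexus and ependyma markers 1 fell (3092 to 4599 CPM and 2393 to 4609 CPM), of 2 tested endothelial markers 1 fell (90.4 to 119 CPM and 66 to 94.7 CPM), and 1 oligodendrocyte precursor marker was tested and did not pass (8.79 to 14.8 CPM and 9.2 to 16.6 CPM). The highest aged values of the red blood cell, choroid plexus, oligodendrocyte, microglial and astrocyte lists all belonged to 24m replicate 1, the aged library with the highest Nduf level. Without that library, neuronal markers again had 7 that rose and 1 that fell, and the 5 red blood cell genes had a median of -1.13. Astrocyte markers then had 2 that rose and 3 that fell. Choroid plexus and ependyma markers had 2 that fell, and 12.2% of all tested genes fell. The part of cell composition in the Nduf decrease was not tested.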

How the data were processed

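The authors deposited raw counts of reads for each gene. According to the methods, the authors mapped ONT direct RNA reads to GRCm39 with minimap2 (version 2.24 in the submitters' processing notes) and counted them on Ensembl genes with featureCounts; strand and multi-mapping settings are not given in the sources used here. The authors' later quantile and row-wise median normalization is not part of these values. Identifiers were matched to GENCODE vM39 (22281 of 22430 genes). The low-count minimum (mean over 5) left 9375 genes, which hold 98.6% of counts.

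Counts were tested with edgeR 4.0.16 in R 4.3.3 (quasi-likelihood test, TMM, age as the only term), with DESeq2 1.42.0 and limma 3.58.1 as alternatives; the study used DESeq2. Standard errors come from the log2FC and F statistic. The code was tested on simulated data with 200 changed genes. Replicates are separate mice. The members and gene lists were chosen with earlier results of these data known. Members named with values are the core subunits, Ndufs4 to Ndufs6, changed members, the 2 highest and 2 lowest log2FC, the assembly factors, Ndufa4 and Ndufa4l2; 1 core subunit that this rule selects and some marker genes are not reported here, and other members were named after their values had been seen. Near-identical transcripts were searched with BLAST+ 2.17.0 (identity of at least 95% over at least 50% of the transcript). Group counts without 24m replicate 1 were added after the data had been seen. No short-read data were analysed here.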

Additional observations from a re-analysis of the deposited data

Results flagged for a closer look

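In groups of 4 libraries, a library was singled out where its gap to the nearest other library, as a share of the group's range, exceeded Dixon's 95% critical value. Of 52 groups examined 5 met this, and chance alone gives about 3. The total count of 6m replicate 2 (573152) lay apart from the other young libraries (0.909). It was also high for Ndufaf6 (0.87), the member with the fewest reads.

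Replicate 1 at 24m was high for Ndufv1 (0.917), the direction in which it also departs in the summed Nduf level. Without it the log2FC of Ndufv1 was -0.37, a larger decrease. Replicate 2 at 24m was low for Ndufaf4 (0.946) and replicate 3 at 24m low for Ndufaf6 (0.899), both with few reads, and neither member passed the test.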

How the results depend on the processing

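Depth limits the assembly factors most, since they gave the fewest reads of the family. The family median stayed negative in all alternatives. Genes changed with age, 1359 in edgeR (968 higher, 391 lower), numbered 834 in DESeq2 and 824 in DESeq2 on quantile-normalized counts, and 2038 passed the adjusted p alone. The higher and lower calls were 1218 and 223 with library sizes alone, which moved the median of all genes to 0.102 (members -0.29 relative to it), and 701 and 484 in limma-voom with quantile normalization (members -0.18 relative to all genes). Members changed downwards numbered 1 in DESeq2, 1 with library sizes alone and 21 by adjusted p alone. Members with an adjusted p of at most 0.05 were 13 in DESeq2 on quantile-normalized counts, beside 4.69% of all genes lower. With library sizes alone there were 10, beside 5.11% of all genes lower, and the summed level differed by -0.17. Members with a lower share of the family were 1 with the replicate block and 1 with a total count over 5. Why these values moved was not tested.

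Leaving out each library gave 12 to 30 members that fell, beside 5.61% to 12.2% of all genes, and 1 to 4 that changed. Genes changed with age then numbered 989 to 1594, and 1 to 2 members had a lower and 1 to 4 a higher share of the family. Ndufv2 turned positive with DESeq2 on quantile-normalized counts (0.05), limma-voom (0.06), library sizes alone (0.09), over 5 counts in every library (0.03), no filter (0.00), filterByExpr (0.01), and without 6m replicate 3 (0.02), 6m replicate 4 (0.00), 24m replicate 2 (0.00) or 24m replicate 3 (0.03). Ndufa4 turned positive in the quantile-normalized DESeq2 (0.01) and limma-voom (0.02) fits, Ndufaf6 without 6m replicate 2 (0.06), and Ndufb4 turned negative without 24m replicate 1 (-0.01). Over the fits without a library these ranged from -0.06 to 0.03 for Ndufv2, -0.23 to 0.06 for Ndufaf6 and -0.01 to 0.13 for Ndufb4. Same-numbered libraries of the ages correlated at 0.062, -0.00932, 0.00489 and -0.157. These values showed no pairing by number, but with few reads for most genes they could not exclude a weak one. The replicate block gave 22 members with an adjusted p of at most 0.05 (beside 9.05% of all genes lower), 2 changed members and 1308 changed genes.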
